A study of Rattus norvegicus with 20 samples.

Results

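The hypothalamic identity transcription factors described here are 10 genes, Tbx3, Isl1, Nr5a1, Otp, Nkx2-1, Six6, Six3, Dlx1, Dlx2 and Sox14. They were taken by gene name from the 25926 gene names on a rat expression array. For 9 of the 10 a probe was found, Dlx2 being the exception, and 8 of these passed the filter on dim probes, which kept 17086 genes. Otp had a probe that did not pass. Tbx3 was put in the group because it was lower after prenatal betamethasone in these same samples, so its levels in saline-exposed and betamethasone-exposed rats without spasms are a description and no test of them was made.

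Transcription factors of this kind divide the developing hypothalamus into nuclei and then fix what each neuron makes. Nkx2-1, Six3 and Six6 act early and pattern the ventral forebrain, Dlx genes accompany the formation of GABA neurons, and Isl1, Tbx3 and Otp act in the precursors of arcuate neurons that make feeding and reproductive peptides. Nr5a1 marks the ventromedial nucleus, which borders the arcuate nucleus. Many of them stay on after birth, when they hold neuronal identity in place.

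RNA was measured in the arcuate nucleus of 20 female Sprague-Dawley rats on postnatal day 15, 4 in each of 5 conditions. SNS rats were exposed to saline before birth, had no spasms and received saline afterwards, and BNS rats differed in that their mothers had 2 injections of betamethasone, a synthetic glucocorticoid, at 0.4 mg/kg each on gestational day 15. BYS, BYA and BYP rats had the same prenatal betamethasone, then spasms triggered with NMDA, an agonist of glutamate receptors, on postnatal days 12, 13 and 15, and were treated with saline, ACTH (the hormone used against infantile spasms) or PMX53 (an antagonist of the complement receptor C5ar1). Treatment was given on postnatal days 13, 14 and 15 per the labels. NMDA and spasms always came together and only after betamethasone, so they cannot be told apart from each other, and there is no condition with spasms after prenatal saline. Litters were reduced to 4 females and the labels do not say which rats were littermates, so p-values measure the spread between these samples.

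Each channel of a 2-colour array held 1 rat. The 20 samples lay on 11 arrays of 6 slides. Among these samples every slide held a single condition, so slide and condition cannot be told apart, with only BYA spread over more than 1 slide. The other channel of the arrays of BYA 3 and BYA 4 held samples of another series. Spots stood above their local background most in BNS and BYS, with a median signal of 16 times the background, against 6.94 times for SNS, 7.42 for BYA and 9.06 for BYP. Of the 10 markers of arcuate neurons, 9 were well above background in every sample, Slc6a3 being the exception, while the pituitary gene Prl and the cortical gene Tbr1 were above it in none. For BYA replicate 3 the dye label and the order of names in the raw data do not match, so which animal that channel holds is not certain. All levels below are log2 intensities after background correction and quantile normalization. A level can be compared between samples for the same gene but not between genes, since probes differ in brightness.

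The sequences of 3 probes are printed here, because in each case a single stretch of 60 bases carries, or does not carry, the measurement of a gene. Coordinates are on the rn4 build as the files give them, and the letters are the probe's own, 5′ to 3′. The Tbx3 probe lies at chr12:38155887-38155946 on the minus strand and is the only one for that gene. The Otp probe lies at chr2:25178344-25178403 on the plus strand. The Nr5a1 probe shown, at chr3:18499562-18499621 on the minus strand, is the dimmer of a pair, and the level of Nr5a1 reported below comes from the other one.
Tbx3: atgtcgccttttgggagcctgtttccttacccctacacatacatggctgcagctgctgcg
Otp: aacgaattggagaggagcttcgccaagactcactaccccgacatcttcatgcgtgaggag
Nr5a1: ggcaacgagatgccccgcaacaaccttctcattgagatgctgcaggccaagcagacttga

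The Otp probe was well above background in 2 BNS and 3 BYS samples and in no SNS, BYA or BYP sample. Its level ran from 7.35 to 7.75 over the 20 samples. The dimmer Nr5a1 probe was well above background in 6 samples and ran from 7.29 to 8.09, whereas the brighter one was well above it in all 20. Neither of these dim probes was kept. Six6 also had a second probe that was not kept, which was well above background in 1 sample, SNS 1, at a level of 9.05 against 7.02 to 7.83 in the other 19. Nkx2-1 had 2 probes, both kept and averaged, and the remaining members had 1 probe each.

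**Figure D1:**
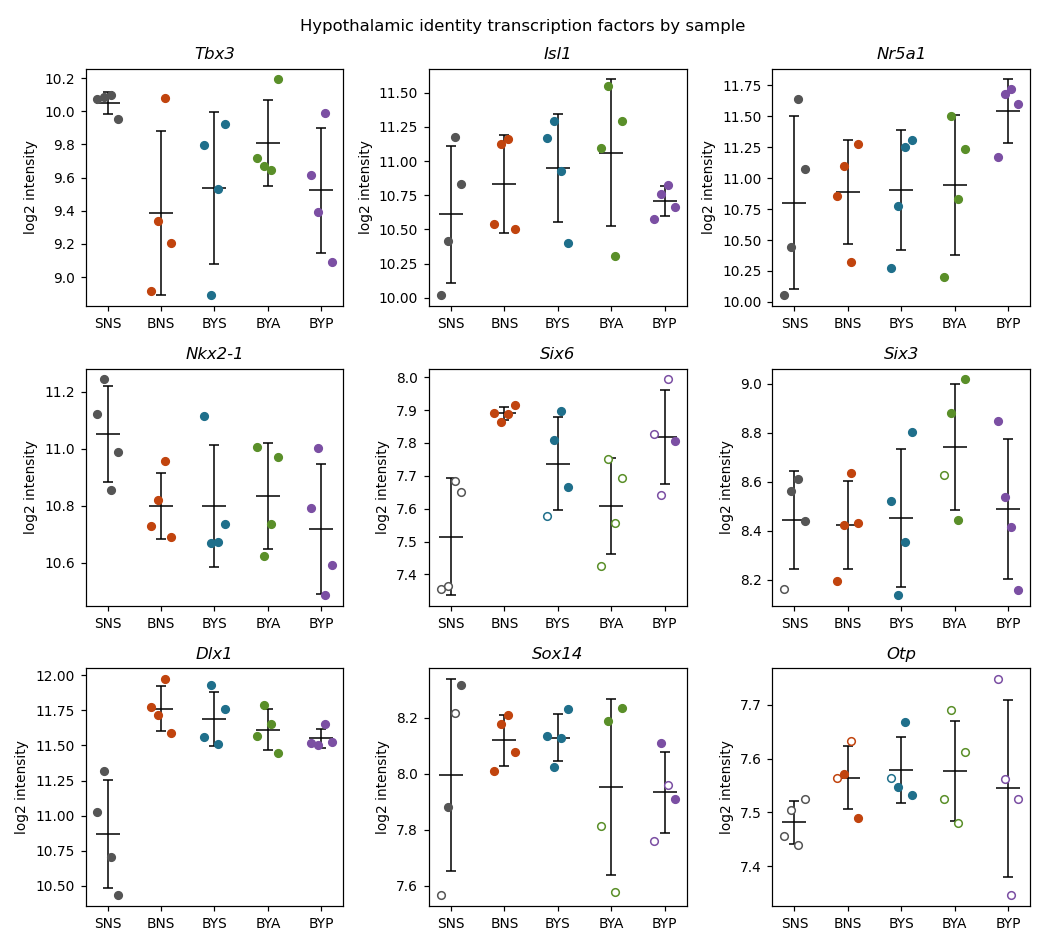
Log2 intensity of 9 members in each of the 20 samples, grouped by condition. Points are samples, filled where the probe was well above background and open where it was not, and the bar and whiskers give the mean and SD of 4 samples. Dlx1 in SNS, from 10.43 to 11.32, lies below the other 16 samples, and Six6 and Otp are open in most conditions.

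Dlx1 showed the largest difference between BNS and SNS among the members and was higher after betamethasone. This homeobox gene drives the formation and upkeep of GABA neurons and restrains Otp in developing arcuate neurons. Its level was 11.02, 11.32, 10.71 and 10.43 in SNS 1 to 4 and 11.77, 11.72, 11.97 and 11.59 in BNS 1 to 4. The 2 conditions did not overlap, which held for 32.5% of the genes without a missing value. The difference was 0.89 ± 0.15 on the log2 scale (SE, n = 4 against 4), a fold of 1.85, with an adjusted p of 0.000365 by limma over all genes.

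The high level of Dlx1 was shared by every condition with prenatal betamethasone. In BYS the samples read 11.56, 11.93, 11.51 and 11.76, in BYA 11.57, 11.79, 11.65 and 11.45, and in BYP 11.51, 11.51, 11.65 and 11.53. All 16 exposed samples lay above all 4 SNS samples, as was the case for 7.25% of the genes without a missing value. In 2 other scalings fewer of them did, 10 of 16 when each channel was only scaled to a common median and 9 of 16 with the processed signals of the extraction software. The mean fell in the order BNS 11.76 ± 0.16, BYS 11.69 ± 0.19, BYA 11.61 ± 0.14, BYP 11.55 ± 0.07 and SNS 10.87 ± 0.39 (SD, n = 4 each), and the first 4 means overlapped in their samples. Against SNS, limma gave differences of 0.82 for BYS, 0.74 for BYA and 0.68 for BYP, with adjusted p of 0.0008, 0.00156 and 0.00333. Over all genes 27.1%, 31.3% and 28.9% passed in these comparisons, which share the SNS samples and were added after the levels had been seen. Over the 5 conditions together the limma F test gave an adjusted p of 0.00159 for Dlx1.

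SNS 1 and 2, on one array, read 0.60 higher on average than SNS 3 and 4 on the next, while samples of the same array differed by 0.30 and 0.27. The difference from BNS was present within each dye, at 1.01 for Cy3 and 0.77 for Cy5. Leaving out any of the 8 samples in turn gave differences from 0.73 to 1.05, with adjusted p from 5.28e-05 to 0.00198. When each channel was only scaled to a common median, the limma difference was 0.57 with an adjusted p of 0.11, while the median gene moved by −0.14.

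The 250 bases before the start of Dlx1 are shown because it is the member with the clearest difference and because betamethasone acts through a receptor that binds DNA. They lie at chr3:76763614-76763863 on the plus strand of the GRCr8 build, from RefSeq, and are printed 5′ to 3′. Motif matches would stand in capitals, and there were none.
Dlx1: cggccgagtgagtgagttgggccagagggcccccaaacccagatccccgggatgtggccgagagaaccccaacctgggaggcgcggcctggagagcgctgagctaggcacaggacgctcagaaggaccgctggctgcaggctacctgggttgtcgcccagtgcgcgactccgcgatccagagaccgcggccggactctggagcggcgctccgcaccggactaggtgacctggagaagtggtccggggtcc

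The motifs searched on both strands were AGAACA, the site of a single glucocorticoid receptor molecule (TGTTCT on the other strand), its paired site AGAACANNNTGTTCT, which contains the single site, and TAATTA, the core that many homeodomain proteins bind. Over 33469 rat promoters of the same length, 17.5% held the single site, 0.012% the paired site and 4.86% the homeodomain core. The promoters of 8 members were in the reference, all but Tbx3 and Dlx2, and none of the 8 held any of the motifs. These letters are then not in these windows, which says nothing of sites elsewhere. The Dlx1 window was 69.2% G and C, against a median of 51.2% over all promoters.

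Tbx3, the T-box factor that keeps arcuate peptide neurons in their mature state, had the lowest mean in BNS and the highest in SNS. The SNS samples read 10.07, 10.09, 10.10 and 9.95. The BNS samples read 8.92, 9.34, 10.08 and 9.21. BNS 1, 2 and 4 lay below every SNS sample, while BNS 3 lay among them, so the conditions overlapped. The difference was −0.67 on the log2 scale, a fold of 0.629, and is given with no test since it is what the gene was chosen for. Without BNS 3 it was −0.89 and without BNS 1 it was −0.47, and these were the extremes when each of the 8 samples was left out. In bulk tissue, fewer cells that express a gene and less RNA per cell cannot be told apart.

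BYS, BYA and BYP all had prenatal betamethasone, so comparisons between them do not contrast the exposure that Tbx3 was chosen for. In BYS the samples read 9.80, 8.89, 9.53 and 9.93, in BYA 9.72, 9.67, 9.64 and 10.19, and in BYP 9.62, 9.39, 9.99 and 9.09. By mean the order was SNS 10.05, BYA 9.81, BYS 9.54, BYP 9.52 and BNS 9.38, and all neighbours in this order overlapped in their samples. The SD was 0.07 in SNS and from 0.26 to 0.50 in the conditions after betamethasone. BYA was 0.27 ± 0.24 higher than BYS (adjusted p = 0.819 by limma) and BYP was 0.01 lower (adjusted p = 0.995), so no difference between treated and untreated rats with spasms was detectable.

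Six6 was the other member that passed the test between BNS and SNS, but it was kept by the filter through BNS alone, so the filter was not independent of this comparison. This homeobox gene acts in eye and hypothalamic development and in neurons that make gonadotropin-releasing hormone. Its probe was well above background in all 4 BNS samples, 3 BYS samples, 1 BYP sample and no SNS or BYA sample. SNS read 7.36, 7.36, 7.68 and 7.65, and BNS read 7.89, 7.87, 7.89 and 7.91. The conditions did not overlap, which held for 32.5% of the genes without a missing value, and the measured means were 7.51 and 7.89. The difference of the measured means was 0.38, a fold of 1.3 (adjusted p = 0.015 by limma), against SNS samples that were not well above background. The ratio of signal to background was highest in BNS and BYS and was 9.06 in BYP, and its part in this difference was not tested. The measured means of BYS, BYA and BYP were 7.74, 7.61 and 7.82. Against the same dim SNS samples, limma gave adjusted p of 0.128, 0.534 and 0.0419. Over all genes 27.1%, 31.3% and 28.9% passed in these comparisons, which were added after the levels had been seen. Between BNS and SNS the adjusted p of Six6 was 0.0521 without SNS 1, 0.051 without SNS 2 and 0.0675 once the array entered as a random block. When the second probe was included, which was high in SNS 1 alone, the difference fell to 0.01 (adjusted p = 0.956).

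Six3, its relative in forebrain patterning, spanned 8.16 to 8.61 in SNS and 8.19 to 8.63 in BNS. After spasms it spanned 8.14 to 8.80 with saline, 8.44 to 9.02 with ACTH and 8.16 to 8.85 with PMX53. All 5 conditions overlapped. BYA had the highest mean, 8.74 ± 0.26 (SD, n = 4), which was 0.32 ± 0.17 above BNS (adjusted p = 0.424 by limma) and 0.29 above BYS (adjusted p = 0.687).

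Nkx2-1, the homeobox gene that gives the ventral hypothalamus its identity, had a lower mean in BNS than in SNS but did not pass the test. Its samples read 11.12, 11.24, 10.85 and 10.99 in SNS and 10.73, 10.82, 10.96 and 10.69 in BNS. The conditions overlapped. The difference was −0.25 ± 0.13 (adjusted p = 0.163 by limma), and its probes gave −0.11 and −0.39. With the slide as a random block the adjusted p was 0.045, in a fit that called 8142 of all genes against 4884 as reported. The means of BYS, BYA and BYP were 10.80, 10.83 and 10.72, all below the SNS mean of 11.05. Against SNS the adjusted p was 0.168, 0.231 and 0.0701 for BYS, BYA and BYP.

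Nr5a1, the nuclear receptor that defines the ventromedial nucleus, had its highest level in BYP. There the samples read 11.17, 11.68, 11.72 and 11.60. In BNS they read 10.85, 11.10, 10.32 and 11.28, and in BYS 10.28, 10.77, 11.25 and 11.31. BYP 1 lay within the range of both other conditions, and the other BYP samples lay above them. BYP was 0.66 ± 0.30 above BNS (adjusted p = 0.262 by limma) and 0.64 ± 0.30 above BYS (adjusted p = 0.581), so neither difference passed the test. SNS ran from 10.05 to 11.64, and the BYA mean was 10.94 ± 0.56 (SD, n = 4). The spread of Nr5a1 within a condition was up to 1.59, which was more than any difference between condition means, the largest being 0.74 between BYP and SNS. The 8 markers of the ventromedial nucleus, Nr5a1 and Sox14 among them, had a summed log2 level of 15.03 to 15.47 in BYP, 14.58 to 15.25 in BNS and 14.88 to 15.27 in BYS, and 7 of the 8 were well above background in every sample. The part of the dissection in the Nr5a1 values was not tested.

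Isl1, a LIM homeobox gene that starts and sustains Pomc and other arcuate peptide genes, spanned 10.02 to 11.18 in SNS and 10.50 to 11.16 in BNS. After spasms it spanned 10.40 to 11.29 with saline, 10.31 to 11.55 with ACTH and 10.58 to 10.83 with PMX53. All conditions overlapped, and no adjusted p of the 6 comparisons was below 0.553. On the array of SNS 3 and 4, the mean of Isl1 was 0.79 higher and that of Nr5a1 1.11 higher than on the array of SNS 1 and 2. Sox14, a Sox gene of inhibitory neurons and of the developing ventromedial nucleus, was well above background in all BNS and BYS samples and in 2 samples of each of the other conditions. It ran from 7.57 to 8.32 over the 20 samples, and no adjusted p was below 0.525.

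**Figure D2:**
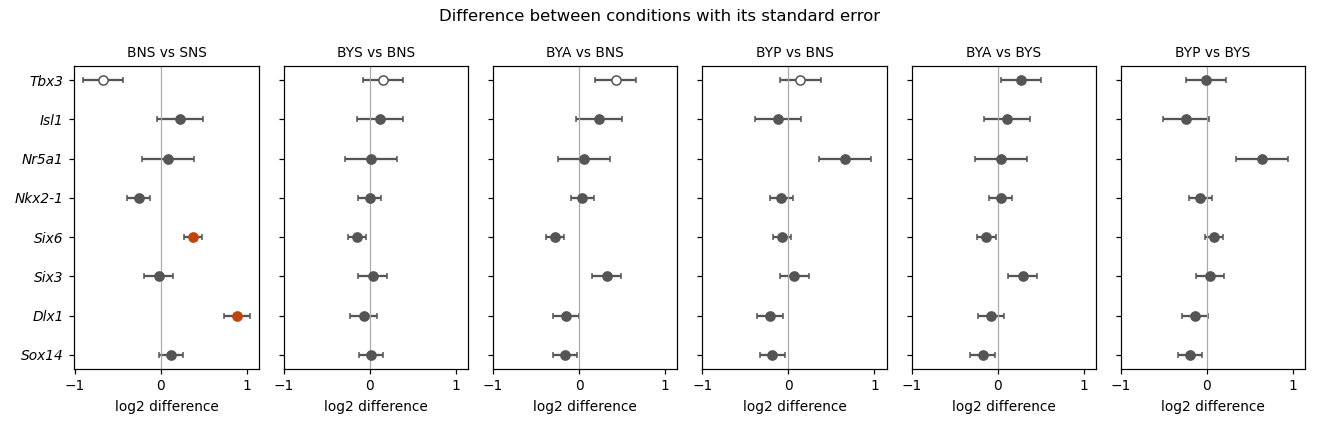
Log2 difference between conditions for the 8 members kept by the filter, in 6 panels for the 6 comparisons, with limma's standard error as bars (4 samples against 4). Orange points passed the test at an adjusted p below 0.05, grey points did not, and white points for Tbx3 were not tested. Dlx1 at 0.89 and Six6 at 0.38, both in BNS against SNS, are the only orange points.

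Between BNS and SNS, 2 of the 7 members tested passed, Dlx1 and Six6, both higher. Six6 passed the filter only through BNS, where it was high, so its pass is not counted as a result. That leaves Dlx1, 1 of 7. Over all genes 28.6% passed in either direction and 15.1% were higher, so the members' share was not above that of the array at large. The median member differed by 0.10 and the median of all genes by −0.04. In the 5 comparisons among rats with prenatal betamethasone, no member passed by limma. The share of all genes was low there too, 0.0293% for BYS against BNS, 0.117% for BYA against BNS, 1.5% for BYP against BNS, 0% for BYA against BYS and 0.0351% for BYP against BYS. Before adjustment, limma placed 1182, 2240, 3045, 1379 and 1453 genes under the threshold in the same order. Six6 was among them for BYA against BNS, and Nr5a1 for BYP against BNS and against BYS. For Six6 that is again a difference from a condition not well above background, 1.22-fold between the measured means. Over the 5 conditions the F test called 1 of 7 members, Dlx1, and 30.3% of all genes.

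**Figure D3:**
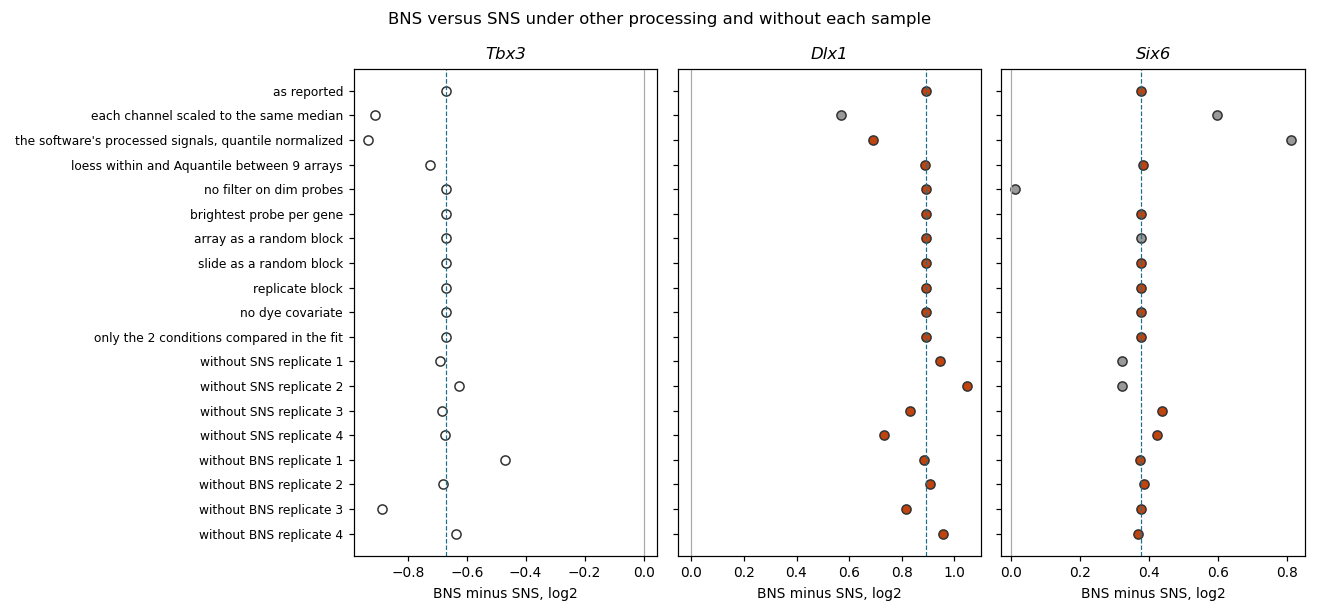
Difference between BNS and SNS (log2) of Tbx3, Dlx1 and Six6 as reported, under other processing, and with each of the 8 samples left out. Orange points have an adjusted p below 0.05, grey points do not, white points for Tbx3 were not tested, and the dashed line marks the reported value. Dlx1 ranges from 0.57 to 1.05, while Six6 drops to 0.01 without the filter on dim probes. Tbx3 ranges from −0.94 to −0.47, which is a description only, since it was chosen for this difference.

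Some markers of other cells that could be in the dissection passed between BNS and SNS as well, as did 28.6% of all genes. The part of these cells in the members' values was not tested. Of 5 red blood cell markers 3 were higher in BNS by limma, Alas2 by 0.99, Hba-a1 by 0.71 and Hbb-b1 by 0.51, with summed levels of 17.19 to 17.46 in SNS and 17.39 to 17.84 in BNS. None of the 3 passed with median scaling, at 0.67, 0.06 and −0.06, where Hbb-b1 changed sign. Alas2 did not pass without BNS 3 or BNS 4, and Hbb-b1 did not pass without SNS 1, 3 or 4 or without BNS 1, 3 or 4. With only the brightest probe of each gene, Hba-a1 differed by 0.37 and did not pass (adjusted p = 0.0858 by limma). The 4 choroid plexus markers kept summed to 12.18 to 12.97 in SNS and 11.35 to 11.87 in BNS, which did not overlap. None of them passed the test alone, and 32.5% of single genes without a missing value did not overlap between these conditions. The sums were 11.30 to 12.10 in BYS, 11.56 to 12.07 in BYA and 11.31 to 11.80 in BYP. All exposed samples thus lay on one side of SNS, as for Dlx1, though below it. Of single genes without a missing value, 7.25% had all 16 exposed samples above SNS, and the share below is not given here. Of 7 microglial markers 1 passed, the receptor gene Cx3cr1, lower by 0.73, and those without a missing value summed to 14.34 to 14.59 in SNS and 13.92 to 14.45 in BNS. The summed arcuate markers ran from 16.51 to 17.11 in SNS and from 16.13 to 17.38 in BNS, and none of them passed.

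Other neighbouring regions and cells had 1 or 2 markers that passed between BNS and SNS, and none in oligodendrocytes. In each of these lists the share was near or below the 28.6% of all genes that passed. Of the 8 markers of the ventromedial nucleus, Gpr149 was higher by 0.53 (adjusted p = 0.0156 by limma), with sums of 15.03 to 15.29 in SNS and 14.58 to 15.25 in BNS. Gpr149 did not pass without SNS 3 or BNS 4 or with the array as a random block (adjusted p = 0.0735). By limma it differed by 0.32 with median scaling (adjusted p = 0.393) and by 0.27 with the processed signals (adjusted p = 0.381). Of 4 pituitary markers kept, Pitx1 was lower by 0.49 (adjusted p = 0.0139), and the sums were 12.48 to 12.77 and 12.00 to 12.70. With the processed signals Pitx1 differed by −0.21 and did not pass. Of 7 markers of tanycytes and ependyma, Col23a1 was lower by 0.45 (adjusted p = 0.00802) and Scn7a higher by 0.67 (adjusted p = 0.0234), with sums of 15.56 to 16.35 and 15.58 to 16.49. Col23a1 did not pass by limma with median scaling or with only the brightest probe of each gene, at −0.31 (adjusted p = 0.133). Scn7a did not pass with median scaling, with the array block or without any 1 of SNS 1, SNS 2, BNS 2, BNS 3 and BNS 4. Oxt was the 1 of 5 magnocellular markers that passed and Tcf7l2 the 1 of 6 thalamic and telencephalic ones. The 7 oligodendrocyte markers summed to 12.35 to 14.37 in SNS and 12.84 to 13.64 in BNS. Among the 5 later comparisons 1 marker passed, Hba-a1 in BYP against BNS, lower by 0.73 (adjusted p = 0.0187 by limma). It did not pass with the array block (adjusted p = 0.137) or without BNS 3, BNS 4 or BYP 1. Nor did it pass with median scaling (adjusted p = 0.834) or with only the brightest probe (adjusted p = 0.259).

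The members were also set beside 63 other transcription factors of hypothalamic development, of which 40 were kept. In BNS against SNS 2 of the 40 rose and 7 fell by limma. Nr2f2, an orphan nuclear receptor, rose by 1.00 ± 0.20 (adjusted p = 0.00139), and Sox2, which keeps neural progenitors, rose by 0.50 ± 0.13 (adjusted p = 0.00893). Pou3f2, needed by neurons that make CRH, oxytocin and vasopressin, fell by 0.69 (adjusted p = 0.00092). Tcf7l2, a Wnt effector abundant in thalamus, fell by 0.58 (adjusted p = 0.0225), and Dlx5, of the same family as Dlx1, fell by 0.51 (adjusted p = 0.0357), opposite in sign to Dlx1. The other 4 that fell lie between −0.28 and −0.49. The share of the 40 that passed, 9 of 40, is below the 28.6% of all genes, and the median of the list was −0.11. Among the later comparisons 1 gene passed, Foxp2 in BYP against BNS, lower by 0.40 (adjusted p = 0.0375 by limma). It passed in 2 of the 8 limma fits that left out 1 sample, with adjusted p from 0.0464 to 0.119. Of 20 alternatives in all it did not pass in 13, and the difference ran from −1.06 to −0.12.

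Of these named genes, Sox2, Pou3f2, Tcf7l2 and Dlx5 did not pass by limma with the processed signals. The difference was then 0.06 for Sox2 (adjusted p = 0.815) and −0.24 for Dlx5 (adjusted p = 0.351), while Pou3f2 at −0.56 (adjusted p = 0.0739) and Tcf7l2 at −0.54 (adjusted p = 0.181) stayed nearer their reported sizes. With median scaling Sox2 differed by 0.10 (adjusted p = 0.831). Once the array entered as a random block, Sox2, Tcf7l2 and Dlx5 did not pass, at adjusted p of 0.0572, 0.0931 and 0.108. Dlx5 passed without BNS 3 and in no other fit that left out 1 of the 8 samples, with adjusted p from 0.0109 to 0.126.

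Of 31 kept genes for products of the neurons that the members specify, 1 rose and 2 fell between BNS and SNS. That share is below the 28.6% of all genes that passed by limma. Mc4r, the melanocortin receptor that responds to Pomc and Agrp peptides, rose by 0.42 (adjusted p = 0.0222 by limma), while the peptide genes Oxt and Nmu fell by 0.65 and 0.55 (adjusted p = 0.0238 and 0.0126). Pomc differed by −0.18 (adjusted p = 0.638), Agrp by 0.48 (adjusted p = 0.368), Kiss1 by −0.18 (adjusted p = 0.539), Tac3 by −0.46 (adjusted p = 0.204), Ghrh by −0.02 (adjusted p = 0.934) and Sst by −0.15 (adjusted p = 0.713), none of which passed. The GABA enzyme genes Gad1 and Gad2 differed by −0.05 and 0.48 (adjusted p = 0.892 and 0.118). Once the array entered as a random block, Mc4r, Oxt and Nmu did not pass, at adjusted p of 0.09, 0.0662 and 0.0533, nor did they with the processed signals, at 0.284, 0.651 and 0.115 for differences of 0.41, −0.24 and −0.74. No product passed in the 5 comparisons after betamethasone.

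**Figure D4:**
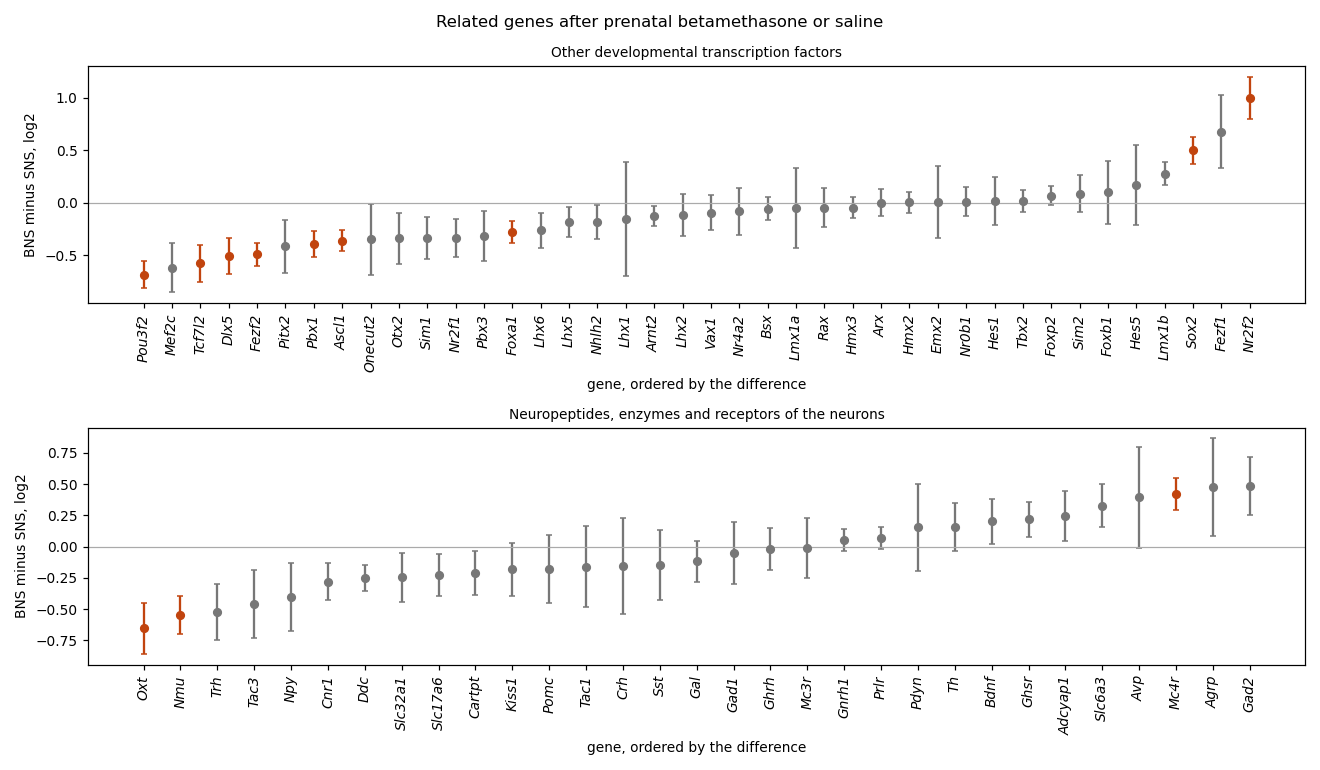
Log2 difference between BNS and SNS with limma's standard error for 40 other developmental transcription factors (top) and 31 products of the neurons the members specify (bottom), each ordered by the difference. Orange marks an adjusted p below 0.05. Nr2f2 at 1.00 lies at the upper end and Pou3f2 at −0.69 at the lower end of the top panel.

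The members did not vary as 1 group from sample to sample. Pearson r between their log2 levels over the 20 samples, with the dye effect removed, is a description with no test, since samples share arrays, slides and one normalization and the 28 pairs share genes. Nkx2-1 ran against Six6 (r = −0.76, Spearman −0.74) and against Nr5a1 (r = −0.68, Spearman −0.61). With the means of the conditions removed these were −0.77 and −0.69. Isl1 and Sox14 went together (r = 0.63, Spearman 0.54, 0.72 within conditions), as did Tbx3 and Six3 (r = 0.60, Spearman 0.61, 0.74 within conditions). Tbx3 and Dlx1 gave −0.45 over the samples and 0.04 within conditions. Six6 was not well above background in 12 of the 20 samples, so its values there are those of a dim probe.

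**Figure D5:**
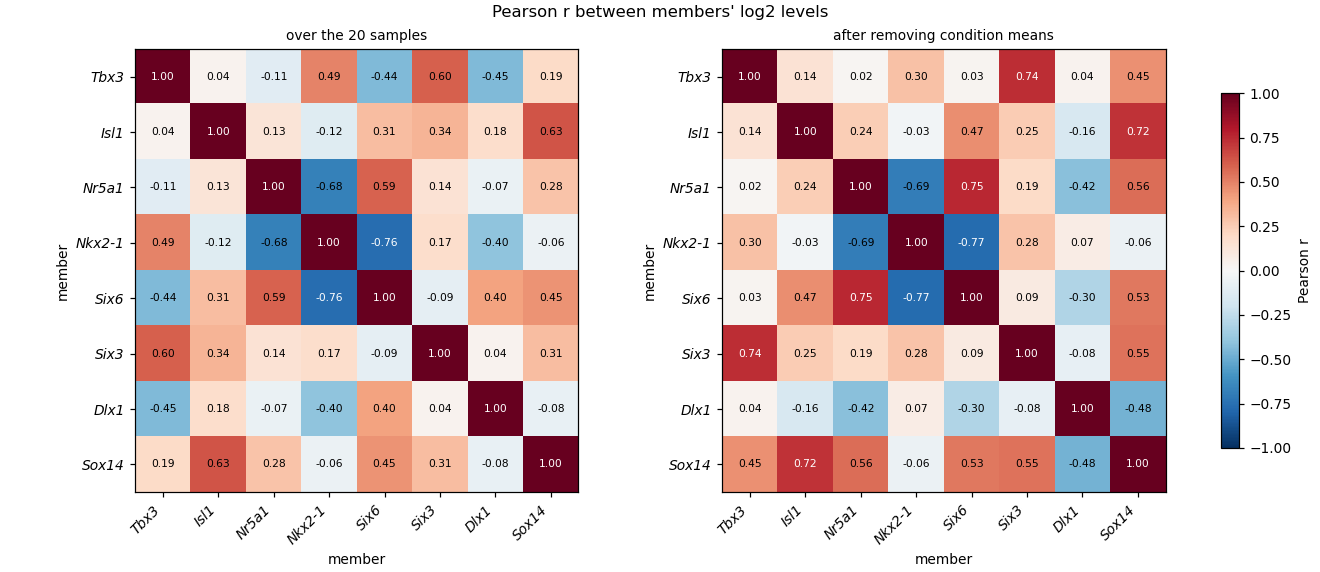
Pearson r between the log2 levels of each pair of the 8 members, over the 20 samples (left) and after the mean of each condition was removed (right). Red is positive and blue negative. Nkx2-1 against Six6 is the most negative pair in both panels, −0.76 and −0.77.

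For each member the 3 genes with the most similar pattern over the 20 samples were sought among the genes without a missing value. For Tbx3 they were Jmjd8 (r = 0.92, Spearman 0.91), Cystm1 (0.89 and 0.92) and Jag2 (0.89 and 0.90), a ligand of Notch receptors. For Nr5a1 they were Bpifa1 (0.92 and 0.92), the somatostatin receptor gene Sstr3 (0.91 and 0.88) and the melanocortin receptor gene Mc3r (0.87 and 0.77). For Six3 they were Slx4 (0.89 and 0.88), Dlk1 (0.88 and 0.83) and Mtss2 (0.86 and 0.91). Without the 2 samples farthest from the member's median, r was 0.84 to 0.91 for Tbx3, 0.82 to 0.91 for Nr5a1 and 0.84 to 0.87 for Six3. For Isl1 they were Pxk (0.83 and 0.75), Orai2 (0.78 and 0.77) and a probe with no gene name (0.77 and 0.73). For Nkx2-1 they were Ptp4a3 (0.82 and 0.74), LOC680585 (0.81 and 0.82) and St6galnac6 (0.80 and 0.84). For Six6 they were Mdfic (0.88 and 0.88), a probe with no gene name (0.87 and 0.73) and LOC100909753 (0.87 and 0.69). For Sox14 they were a probe with no gene name (0.87 and 0.88), Enkur (0.82 and 0.77) and the activin receptor gene Acvr1b (0.80 and 0.77). Without the 2 farthest samples these r were 0.65 to 0.73 for Isl1, 0.72 to 0.73 for Nkx2-1, 0.77 to 0.83 for Six6 and 0.67 to 0.85 for Sox14. Dlx1 is different in that its SNS samples lie apart, so r is given within the 16 exposed samples, where it was 0.72 with Caap1, 0.68 with Zfp955a and 0.64 with Gpbp1l1, genes picked over all 20 samples.

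Among the products, the level of Tbx3 went with Tac3 (r = 0.69, Spearman 0.73), Npy (0.66 and 0.67) and Pomc (0.63 and 0.61) and ran against Bdnf (−0.73 and −0.75), Slc6a3 (−0.65 and −0.65) and Mc4r (−0.63 and −0.65). Within conditions these were 0.72, 0.62, 0.68, −0.74, −0.67 and −0.58, and without the 2 samples farthest in Tbx3 they were 0.66, 0.60, 0.54, −0.70, −0.69 and −0.58. Nr5a1 went with Mc3r, and also with Pdyn (r = 0.81, Spearman 0.79) and Th (0.75 and 0.71), and ran against Crh (−0.65 and −0.54). Within conditions the last 3 were 0.83, 0.73 and −0.81, and without the 2 farthest samples 0.77, 0.64 and −0.53. In other members Nkx2-1 ran against Pdyn (−0.72 and −0.63) and Six3 against Slc17a6 (−0.69 and −0.68), at −0.74 and −0.67 within conditions. Dlx1 gave −0.77 with Oxt and 0.72 with Gad2 (Spearman −0.54 and 0.48), and without the 2 farthest samples, SNS 3 and 4, r was −0.34 and 0.25. These pairs were picked by size, after the values were seen, out of 232, the 8 members against the 29 products without a missing value, and the share of each cell group in the dissected tissue was not measured.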

How the data were processed

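The deposited files are the output of the Agilent Feature Extraction software, 1 for each array (version 10.7.3.1 per the labels, 11.5.1.1 per the file headers). Per the file headers, the mean spot signal and its background median are raw intensities, and the processed signal is an intensity after background subtraction and dye normalization. Flags for each spot were used too. The 82 columns of values of another series were not used, and fold changes of the authors were not used.

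Background was corrected with normexp (offset 50) in limma 3.58.1 (R 4.3.3, statmod 1.5.0), followed by quantile normalization of log2 values over 20 channels. Outlier spots (1.18%) were left out. A probe had to be well above background, in a share of 0.5 or more of its spots, in every sample of some condition, which left 19883 of 30367 probes and 17086 genes. Probes of a gene were averaged. Symbols came from accessions matched to RefSeq, at 61.4% of probes, and otherwise from the files.

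One limma fit of 20 samples with dye as covariate gave 6 contrasts and an F test, adjusted by Benjamini-Hochberg over all genes and called below 0.05. It was tested on simulated data. The number of arrays limits the precision. Members, lists and tests were chosen with earlier results of these data known. All 10 members are named. Of the other lists, genes called in a contrast are named, up to 5 per list and contrast by size of difference, besides peptide and enzyme genes fixed with the lists, and the 3 genes closest to each member by Pearson r. The lists were other developmental factors, neuron products, and markers of arcuate, ventromedial, pituitary, magnocellular, thalamic and telencephalic, tanycyte, choroid, oligodendrocyte, red blood and microglial cells.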

Additional observations from a re-analysis of the deposited data

Results flagged for a closer look

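Of 40 groups of 4 samples, 8 members in 5 conditions, 3 held a sample whose gap to its nearest neighbour was large for the range of its group, and chance gives about 1 in 20. Tbx3 in BYA 4 was 10.19, with the next sample at 9.72. Nkx2-1 in BYS 1 was 11.12, with the next at 10.74. Dlx1 in BYP 3 was 11.65, with the next at 11.53. The cause was not tested.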

How the results depend on the processing

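Between BNS and SNS, 2 members passed, Dlx1 and Six6, but Six6 was kept by the filter through BNS alone. Its pass is not counted as a result, and its part in the counts below is no result either. No member passed under median scaling of each channel, or by the t-test of the methods after Benjamini-Hochberg adjustment. Dlx1 alone passed with the processed signals, without the filter on dim probes and when arrays were treated as random blocks. Treating slides this way gave 3 members, Dlx1, Six6 and Nkx2-1. Without 1 replicate the count was 1 to 2, with Dlx1 passing each time and Six6 not passing without SNS 1 or SNS 2. The t-test of the methods, unadjusted, called 1 member for BYA against BNS and 1 for BYP against BNS, Six6 and Nr5a1, where limma called 0, and median scaling called 1, Six6, for BYP against BYS. Over the 5 conditions, 1 member passed, but 0 with the processed signals, 2 without the dye covariate, 3 with the slide as a random block and 1 to 3 without 1 replicate, being 3 without SNS 3 and 2 without BYA 2 or BYP 2. The estimated correlation was −0.128 for the slide block, where only BYA spans more than 1 slide, and 0.365 for the array block. Replicate numbers did not pair samples across conditions, with a mean correlation of 0.0031 (−0.239 to 0.28) for the same number, and the replicate block gave 2 members between BNS and SNS and 2 over the 5 conditions. Of 80 differences of members, named genes and markers, 39 changed sign under some alternative, of which 1 passed the test as reported, Hbb-b1, at −0.0567 with median scaling.

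Of all genes, 4884 were called between BNS and SNS, 2651 with median scaling (29.8% of them higher, against 52.9%), 2333 with processed signals, 2588 with the array block (65.1% higher) and 8142 with the slide block. For BYP against BNS 257 were called, from 0 with median scaling to 2646 with the slide block, and for BYA against BNS 20, but 182 without BYA 3. For BYP against BYS 6 were called and 2849 with median scaling, where the median gene moved by −0.17. Relative to the median gene, Dlx1 differed between BNS and SNS by 0.71 with median scaling and by 0.94 as reported. Dim probes limit Six6, Otp and Sox14.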
